A study of Mus musculus with 12 samples.

Results

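The contrast described here is the difference between the coculture response of group 2 innate lymphoid cells (ILC2s) and that of eosinophils. For each gene, the change of ILC2s between culture alone and coculture was taken on the log2 scale, and the change of eosinophils was subtracted from it. A positive difference means that the ILC2 response was the higher one, and a negative difference that the eosinophil response was. Its members are the 15745 genes that passed a low-count filter, of 49315 in the table. Of these, 8619 were measured in both cells, meaning a group mean of at least 5 CPM (counts relative to library size, scaled by the trimmed mean of M-values) in 1 or more groups of each cell type. The genes Cyp11a1, Il1r2, Cd101 and Csf1 mark the contrast and, like the gene lists below, were chosen with results of these data known.

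All cells came from C57BL/6 mice, and there were 4 groups of 3 libraries. Lung ILC2s were sorted, grown with IL-33 and IL-25 beside IL-2 plus IL-7, held in IL-2 and IL-7 only for 48 h, washed, and cultured for 24 h without cytokines, either alone or together with eosinophils. Blood eosinophils, purified by depletion of B220 and CD90 positive cells, were treated with IL-33 for 24 h, washed, and likewise cultured for 24 h alone or with ILC2s. Cocultured cells were parted by flow cytometry before RNA extraction, so both cells of a coculture came from the same kind of dish, and every eosinophil group had met IL-33. Whether cells cultured alone were also passed through the sorter is not stated, so sorting and coculture cannot be told apart if they were not. The labels do not say that the 3 libraries of a group came from separate cultures or animals, so the p-values below measure the spread between these libraries, which may be technical.

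ILC2s are tissue-resident lymphocytes that lack antigen receptors and release type 2 cytokines such as IL-5 and IL-13 when alarmins reach them. Eosinophils are granulocytes that depend on IL-5 and related cytokines for survival, and in allergic airways the 2 cell types lie close together. Cells that take up cytokine signals through JAK and STAT proteins commonly raise SOCS feedback genes, and cells that adapt to low oxygen or to growth signals raise glycolytic enzymes through HIF transcription factors.

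The libraries held 16769929 to 22928961 counts, so that 3 counts correspond to 0.131 to 0.179 CPM. Lineage markers followed the labels. Gata3, the ILC2 master regulator, averaged 748 and 706 CPM in ILC2s and 1.46 and 0.316 CPM in eosinophils, and Siglecf, an eosinophil surface lectin, averaged 1372 and 1374 CPM in eosinophils and 0.228 and 0.258 CPM in ILC2s. Partner RNA was estimated from markers of the other cell. Only genes whose level in cells cultured alone was no more than 1% of the partner's level were used. This choice favours low values alone, so the permutation tests that follow cannot decide whether the share changed with coculture. Cells cultured alone met no partner, and the part of their own expression in these values was not tested. The estimated share was 0.0285 ± 0.00940% in ILC2 libraries cultured alone and 0.0388 ± 0.00398% in cocultured ones. In eosinophil libraries it was 0.124 ± 0.0454% and 0.0695 ± 0.0287% (SD, n = 3 each, exact permutation p = 0.2 for either cell, where 0.1 is the smallest possible). Wider marker sets gave larger shares, 0.0770% and 0.0880% in ILC2s (p = 0.2) and 0.291% and 0.223% in eosinophils (exact permutation p = 0.1). One eosinophil library cultured alone, replicate 2, stood furthest from its group, with chi-square values per degree of freedom of 13.9 and 19.5 against the other 2.

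The difference of responses passed the threshold for 8114 genes, 51.5% of those tested (edgeR's quasi-likelihood test on all 12 libraries, Benjamini-Hochberg adjusted p under 0.05). It was positive for 4215 (26.8%) and negative for 3899 (24.8%). With library totals in place of the scaled ones the split was 3357 to 5112, and the median difference over all genes moved by -0.189 on the log2 scale. A difference beyond 2-fold was met by 3557 genes (22.6%), 2149 positive and 1408 negative. Calls followed depth: 16.2% of genes under 1 CPM were called and 75.3% of genes over 100 CPM. The median SE of the genes without a call was 0.46, which is not a limit of detection. Differences of that size, and larger ones, could be missed there.

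The responses of ILC2s were the wider ones. Among the 8619 genes measured in both cells the SD of the response was 0.808 in ILC2s and 0.433 in eosinophils on the log2 scale, and over all genes tested 5134 rose in ILC2s (32.6%) and 4774 fell (30.3%), against 2276 (14.5%) and 1958 (12.4%) in eosinophils. Of the called differences, 2535 were genes that rose and 2282 genes that fell in ILC2s with no call in eosinophils, while 325 rose and 334 fell in eosinophils with no call in ILC2s. In these bulk libraries, fewer cells that express a gene and less RNA per cell cannot be told apart.

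**Figure D1:**
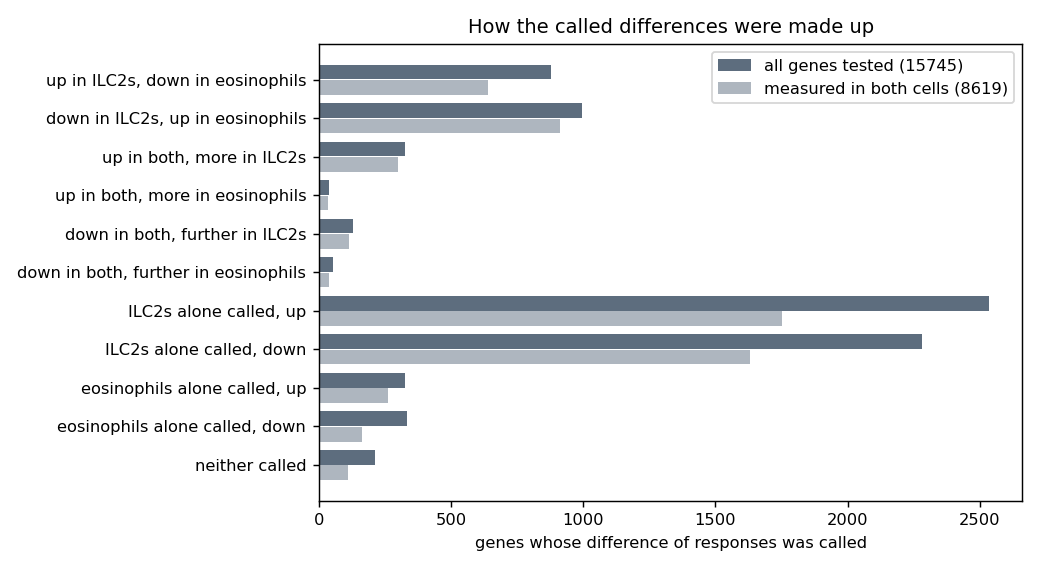
Number of genes (x axis) whose difference of responses was called, by how each cell responded (y axis), for all 15745 genes tested (dark bars) and for the 8619 measured in both cells (light bars). Genes called in ILC2s with no call in eosinophils form the longest bars. Genes that moved the same way by similar amounts are not in the bars, since their difference was not called.

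Of the genes called in both responses, with or without a called difference, 1872 moved in opposite directions and 1138 in the same direction. All of the former and 552 of the latter had a called difference, which opposite responses favour. In 877 genes (5.57% of those tested) the level rose in ILC2s and fell in eosinophils, and in 995 (6.32%) it fell in ILC2s and rose in eosinophils; among genes measured in both cells, of which 69.1% were called, these were 641 (7.44%) and 913 (10.6%). Across those 8619 genes the 2 responses had a Pearson correlation of -0.315 and a Spearman correlation of -0.179. This is a description across genes, which share libraries and scaling and are not independent replicates.

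**Figure D2:**
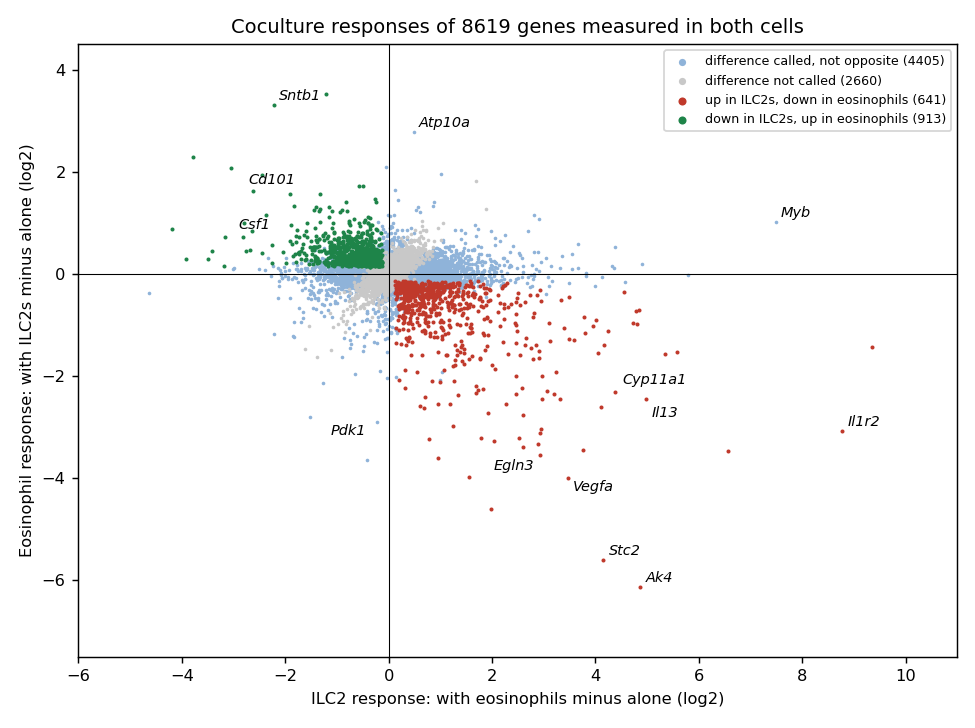
Response of eosinophils (y axis, cocultured minus alone, log2) against response of ILC2s (x axis, log2) for the 8619 genes measured in both cells, 1 point a gene; 1 point lies outside the axes. Red points (641) rose in ILC2s and fell in eosinophils, green points (913) the reverse, and the red points reach further from the origin than the green ones.

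Il1r2 and Cyp11a1 rose in ILC2s and fell in eosinophils. Il1r2 encodes the decoy receptor that binds IL-1 without signalling. It read 0.72, 1.17 and 0.384 CPM in ILC2s cultured alone and 307, 323 and 335 CPM in cocultured ILC2s. In eosinophils it read 101, 86.3 and 84.8 CPM alone and 10.1, 10.5 and 11.4 CPM after coculture. The groups of each cell did not overlap, and the cell with the higher level changed from eosinophils to ILC2s. The difference was 11.86 ± 0.17 (log2, SE), with an adjusted p of 2.9e-24 by edgeR's quasi-likelihood test with Benjamini-Hochberg adjustment. Because Il1r2 is also an eosinophil gene, it made up most of the summed eosinophil markers in cocultured ILC2s, 359 CPM by library totals where the 24 markers summed to 446 to 473 CPM.

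Cyp11a1 encodes the mitochondrial enzyme that starts steroid synthesis from cholesterol. Its level was 28, 30.8 and 28.6 CPM in ILC2s alone and 593, 622 and 602 CPM in cocultured ILC2s, and 362, 337 and 354 CPM in eosinophils alone and 73.4, 68.6 and 70.4 CPM in cocultured eosinophils. Coculture thus set ILC2s above every eosinophil library, whereas alone every eosinophil library was above every ILC2 library. The difference was 6.69 ± 0.08 (edgeR's quasi-likelihood test, Benjamini-Hochberg adjusted p = 1.79e-25).

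Cd101 and Csf1 moved the other way. Cd101 encodes an inhibitory immunoglobulin-family receptor. It read 36.8, 35.5 and 37 CPM in ILC2s alone and 6.38, 5.81 and 5.63 CPM in cocultured ones, and 108, 111 and 99 CPM in eosinophils alone and 283, 330 and 359 CPM in cocultured ones. The level fell in ILC2s and rose in eosinophils, which were already the higher cell, so that the gap widened. The difference was -4.23 ± 0.12 (edgeR's quasi-likelihood test, Benjamini-Hochberg adjusted p = 9e-19).

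Csf1 encodes the growth factor for macrophages. The 2 cells alone were close, at 216, 205 and 214 CPM in ILC2s and 191, 214 and 196 CPM in eosinophils. After coculture ILC2s read 28.2, 29 and 33.1 CPM and eosinophils 341, 332 and 319 CPM. The difference was -3.53 ± 0.09 (edgeR's quasi-likelihood test, Benjamini-Hochberg adjusted p = 6.24e-20).

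The 250 bases before the start site are shown for Il1r2, Cyp11a1 and Cd101 and for Egln3 and Pgk1. Egln3 is a hypoxia gene and Pgk1 a glycolysis gene, both described below. HIF factors bind a short core, of which ACGTG is the form that was searched and that a reader can look for. Other forms of the core were not searched. They are from RefSeq, build GRCm38.p6, written 5′ to 3′ on the gene's strand. Capitals mark ACGTG on either strand (read as CACGT on the opposite one), and where the letters CACGTG stand, the 2 readings overlap and are counted as 2 matches.
Il1r2 (chr1:40085843-40086092, plus strand): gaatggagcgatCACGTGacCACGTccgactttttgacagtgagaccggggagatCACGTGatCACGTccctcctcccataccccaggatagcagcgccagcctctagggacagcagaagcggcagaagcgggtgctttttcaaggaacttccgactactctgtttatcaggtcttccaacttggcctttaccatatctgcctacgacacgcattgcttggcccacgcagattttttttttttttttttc
Cyp11a1 (chr9:57997774-57998023, plus strand, 1 of 2 listed starts): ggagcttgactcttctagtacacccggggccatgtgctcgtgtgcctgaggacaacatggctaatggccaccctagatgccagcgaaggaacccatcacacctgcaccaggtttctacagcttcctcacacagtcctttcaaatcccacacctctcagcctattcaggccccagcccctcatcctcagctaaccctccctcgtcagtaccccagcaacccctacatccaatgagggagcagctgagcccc
Cd101 (chr3:101029554-101029803, minus strand): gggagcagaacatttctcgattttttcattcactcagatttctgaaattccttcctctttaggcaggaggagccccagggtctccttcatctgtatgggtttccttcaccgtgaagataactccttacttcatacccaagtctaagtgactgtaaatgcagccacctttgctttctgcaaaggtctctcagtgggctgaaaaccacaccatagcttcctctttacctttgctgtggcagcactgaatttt
Egln3 (chr12:54203875-54204124, minus strand): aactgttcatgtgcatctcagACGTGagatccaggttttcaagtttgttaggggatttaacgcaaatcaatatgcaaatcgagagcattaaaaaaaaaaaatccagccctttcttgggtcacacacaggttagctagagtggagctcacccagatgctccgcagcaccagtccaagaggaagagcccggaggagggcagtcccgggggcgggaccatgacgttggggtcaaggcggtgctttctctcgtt
Pgk1 (chrX:106186850-106187099, plus strand): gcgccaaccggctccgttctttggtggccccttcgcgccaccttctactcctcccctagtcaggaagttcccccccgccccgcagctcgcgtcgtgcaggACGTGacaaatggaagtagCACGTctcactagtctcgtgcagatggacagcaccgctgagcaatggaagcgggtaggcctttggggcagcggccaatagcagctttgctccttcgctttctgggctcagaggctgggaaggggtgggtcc
The Il1r2 window held 6 matches, counted over 2 CACGTG palindromes, which are also E-box letters, and 2 single cores. Pgk1 held 2, Egln3 held 1, and the windows of Cyp11a1, Cd101 and Csf1 held 0. The Cyp11a1 window lies well before the GENCODE gene start at 58006411, and the window of its other listed start was not searched. The Il1r2 window lies inside the GENCODE gene, which starts at 40074079. Of all 27025 windows, 16.6% held the letters, and of genes measured in both cells 24.0%. The share was 27.8% of 496 genes that rose in ILC2s and fell in eosinophils, 22.0% of 738 that moved the reverse way, and 24.6% of 2083 without a called difference. It was 8 of 16 windows in the hypoxia list, 8 of 19 in glycolysis and 3 of 21 in DNA replication. A match is a description of the letters and not a bound site.

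Glycolysis genes rose in ILC2s and fell in eosinophils almost without exception. Of 20 genes in the list, all tested, the difference was called positive for 19 and negative for 0. In 18 of them the level rose in ILC2s while falling in eosinophils. For this and the later lists, the shares over all genes tested were 26.8% positive, 24.8% negative and 5.57% with that opposite response. Among the 8619 genes measured in both cells, 2923 were positive and 3036 negative. The median difference was 3.73, made of a median ILC2 response of 1.93 and an eosinophil response of -1.32, where the median over all genes was 0.01. Tpi1, triosephosphate isomerase, read 54.8, 46.6 and 48.3 CPM in ILC2s alone and 841, 854 and 897 CPM in cocultured ones. In eosinophils it read 1450, 1380 and 1510 CPM alone and 243, 226 and 246 CPM cocultured. Its groups stood apart in both cells, with a difference of 6.72 ± 0.09 (edgeR's quasi-likelihood test, Benjamini-Hochberg adjusted p = 1.31e-24).

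Pgk1, phosphoglycerate kinase, read 154, 140 and 146 CPM and 1320, 1330 and 1400 CPM in ILC2s alone and cocultured, and 1170, 1120 and 1180 CPM and 226, 218 and 233 CPM in eosinophils. The difference was 5.57 ± 0.08. Early and late steps of the pathway moved together. The difference was 2.91 for the glucose transporter Slc2a1, 2.23 for hexokinase Hk2, 4.66 for phosphofructokinase Pfkl, 6.00 for aldolase Aldoc, 4.44 for Gapdh, 3.81 for lactate dehydrogenase Ldha and 5.36 for the lactate exporter Slc16a3. The gene without a call was Eno2, at 0.87. Gapdh shares exon sequence on the opposite strand with Iffo1 and Tpi1 with Spsb2, so part of their reads may belong to the neighbour; the neighbours reached at most 128 and 28.4 CPM.

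Hypoxia-response genes moved with them. Of 21 tested, 20 were called positive and 0 negative, 15 with opposite responses, and the median difference was 3.38 (ILC2 1.40, eosinophils -2.10). Egln3, a prolyl hydroxylase that is a HIF target and marks HIF for degradation, read 50.9, 50.8 and 49.5 CPM in ILC2s alone and 377, 373 and 406 CPM in cocultured ones. In eosinophils it read 512, 510 and 514 CPM alone and 44.7, 42.9 and 44.2 CPM cocultured. Each group was narrow and none overlapped, and the 2 cells traded places: eosinophils alone and cocultured ILC2s were high. The difference was 6.48 ± 0.08 (edgeR's quasi-likelihood test, Benjamini-Hochberg adjusted p = 1.79e-25).

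Vegfa, the vascular growth factor, read 6.86, 7.35 and 6.85 CPM and 70.9, 75.7 and 85.3 CPM in ILC2s alone and cocultured. Eosinophils read 182, 175 and 157 CPM alone and 8.78, 13 and 10.1 CPM cocultured. Its difference was 7.47 ± 0.14 (edgeR's quasi-likelihood test, Benjamini-Hochberg adjusted p = 7.02e-22). Larger values belonged to Ak4, a mitochondrial adenylate kinase (11.00), and Stc2, a secreted glycoprotein (9.76), both of which fell to under 1 CPM in every cocultured eosinophil library. Mgarp, a mitochondrial protein, had 0 counts in all cocultured eosinophil libraries against 13.6, 16.3 and 11.6 CPM alone, at least 238-fold lower over the group (floor of 3 counts). In ILC2s it read 0.144, 0 and 0.105 CPM alone and 13.4, 13.1 and 14.7 CPM cocultured.

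The HIF subunits themselves did not share that pattern. Hif1a, the inducible HIF subunit, rose in ILC2s from 205, 210 and 203 CPM to 495, 478 and 485 CPM and read 507, 573 and 516 CPM and 514, 564 and 535 CPM in eosinophils, where no change was called. Epas1, the related HIF-2 subunit, rose from 49.4 to 271 CPM in ILC2s and was under 1 CPM in every eosinophil library. Pdk1, a pyruvate dehydrogenase kinase, fell in both cells. It went from 173, 167 and 168 CPM to 136, 144 and 153 CPM in ILC2s, and from 121, 135 and 115 CPM to 16.2, 16.4 and 16.9 CPM in eosinophils. Its positive difference of 2.67 therefore arose from the deeper fall in eosinophils. Car9, carbonic anhydrase, was the list member without a call (0.40 ± 0.26).

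**Figure D3:**
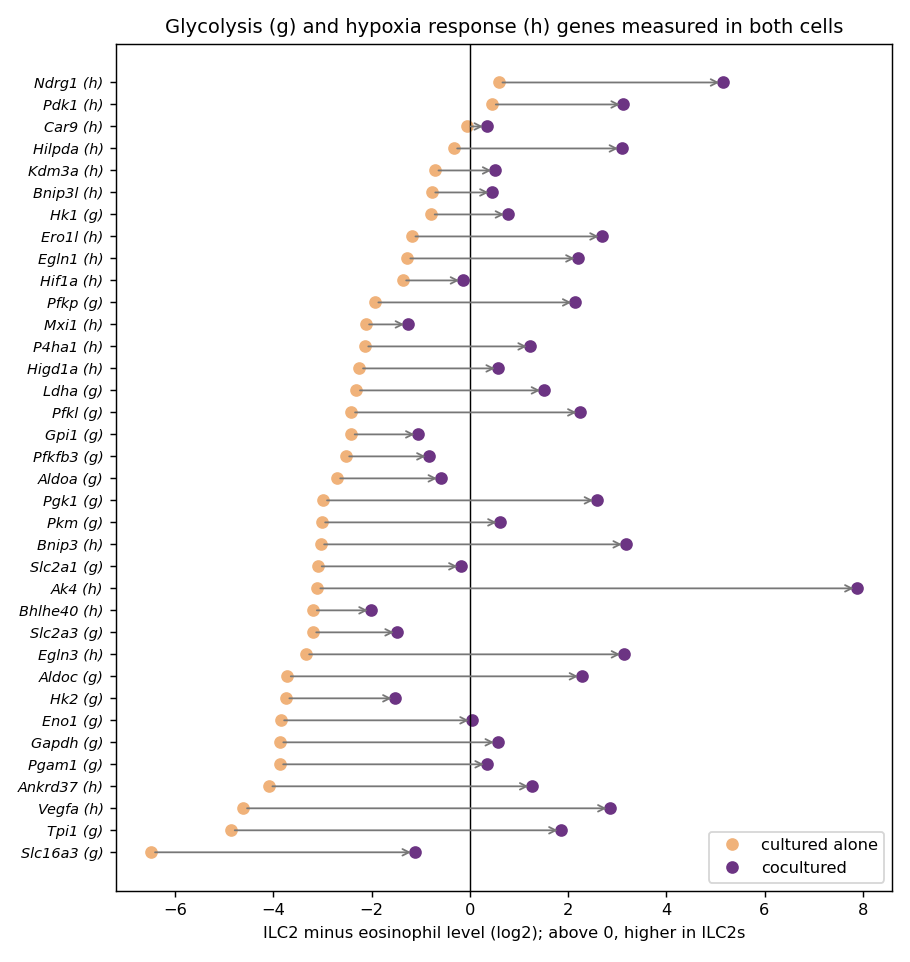
Level of ILC2s minus level of eosinophils (x axis, log2) for each glycolysis (g) and hypoxia-response (h) gene measured in both cells (y axis), alone (orange) and cocultured (purple), with an arrow between them. Every arrow points to the right, and most cross 0, the line where the cells are equal.

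The order of the cells changed for many genes. In 723 of the 15745 genes tested eosinophils were significantly higher alone and ILC2s significantly higher after coculture, and in 535 the reverse held. Among the 8619 measured in both cells these were 610 and 492. Of the glycolysis list 10 of 20 were among the former and 0 among the latter, and of the hypoxia list 12 of 21 and 0. The count of 723 was 460 with library totals.

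**Figure D4:**
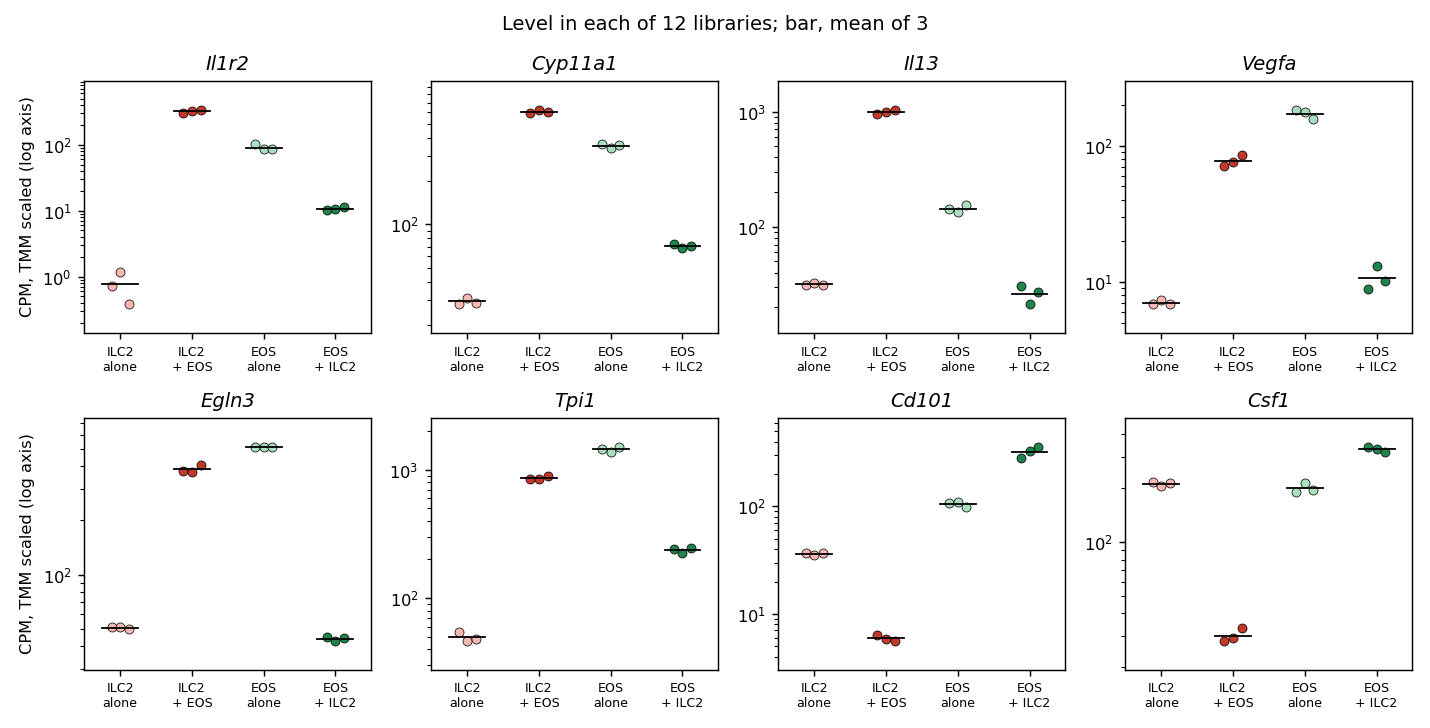
Level in CPM (y axis, log scale) of 8 genes in each of the 12 libraries by group (x axis), with a bar at each mean of 3. Il1r2, Cyp11a1, Il13, Vegfa, Egln3 and Tpi1 rise in ILC2s and fall in eosinophils, whereas Cd101 and Csf1 do the reverse, and no 2 groups of the same cell overlap.

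Cytokine genes also differed. Il13, a main type 2 effector cytokine, read 31.2, 32.5 and 31.1 CPM in ILC2s alone and 960, 1000 and 1030 CPM in cocultured ones. Eosinophils read 142, 135 and 155 CPM alone and 30.6, 21.4 and 27.1 CPM cocultured. ILC2s went from the lower to the higher cell with no overlap, and the difference was 7.43 ± 0.12 (edgeR's quasi-likelihood test, Benjamini-Hochberg adjusted p = 3.13e-23). Il5, the eosinophil growth factor, read 50.1, 50.6 and 51.1 CPM and 324, 332 and 348 CPM in ILC2s. Eosinophils read 1210, 1160 and 1260 CPM alone and 888, 877 and 968 CPM cocultured, so eosinophils remained the higher cell, and the difference was 3.14 ± 0.08.

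Lif, an IL-6 family cytokine, averaged 6.97 and 671 CPM in ILC2s alone and cocultured and 3.26 and 0.31 CPM in eosinophils, a difference of 9.96, or 15.63 with partner RNA subtracted from cocultured libraries. Osm, its relative, had a difference of 4.46. The ILC2-only rises included Il6, with an ILC2 response of 3.12 and a difference of 2.91. They also included Il10, whose counts summed to 3 in ILC2s alone and 628 in cocultured ILC2s, a 213-fold ratio (95% counting interval 72.6 to 1040). Il4 was not called, at 0.32 ± 0.16 with an adjusted p of 0.0942 by edgeR's quasi-likelihood test with Benjamini-Hochberg adjustment; it passed with the replicate block (adjusted p = 0.0235) and without either cocultured ILC2 replicate 2 (0.0305) or eosinophil-alone replicate 2 (0.0135). Csf2 was positive at 1.98 ± 0.69 (adjusted p = 0.0186), with an average under 1 CPM in both eosinophil groups, and it missed the threshold with DESeq2 (0.105) and when eosinophil-alone replicate 1 (0.0506), eosinophil-alone replicate 3 (0.053) or cocultured eosinophil replicate 2 (0.0559) was left out, while without cocultured eosinophil replicate 1 it was 4.16. In the whole type 2 list, 9 of 15 were called positive and 2 negative, the negative ones being Csf1 and Il2, which was under 1 CPM on average in every group, and the positive count was 5 when only genes of at least 1 CPM in both cells were kept.

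In the cytokine receptor list 6 of 24 were called positive and 6 negative, shares close to the 26.8% and 24.8% of all genes tested, and library totals raised the negative count to 10. Il10ra, the IL-10 receptor chain, had a difference of 4.98 (ILC2 3.95, eosinophils -1.03), Il2rb, shared by IL-2 and IL-15, 5.03 with eosinophils under 1 CPM on average, and Il4ra, shared by IL-4 and IL-13, 2.04. Il7r, which ILC2s use for survival, fell in ILC2s from 1400, 1400 and 1380 to 215, 237 and 265 CPM with no change called in eosinophils, a difference of -2.48. Il1rl1, the IL-33 receptor, did not pass in ILC2s but fell in eosinophils by 0.61 on the log2 scale, from 985, 991 and 957 CPM to 644, 652 and 621 CPM. In the IL-1 family list, 4 of 15 were called positive and 4 negative. The negative ones included the IRAK family genes Irak2 (ILC2 -0.60, eosinophils 0.40), Irak3 (difference -0.72) and Irak4 (difference -0.71). Myd88, an adaptor of IL-1 receptor signalling, had a difference of 1.85. Library totals raised the negative count to 7, and Irak3, Irak4 and Myd88 share exon sequence on the opposite strand with Tmbim4, Twf1 and Acaa1a.

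The STAT5 and SOCS feedback list leaned to ILC2s. Of its 20 genes, 15 were called positive and 4 negative, and 10 rose in ILC2s while falling in eosinophils, with a median difference of 1.42 (ILC2 0.86, eosinophils -0.69). Socs3, an inhibitor of cytokine receptor signalling, read 2.69, 3.2 and 2.97 CPM in ILC2s alone and 107, 129 and 125 CPM in cocultured ones. In eosinophils it read 141, 139 and 139 CPM alone and 50.2, 45.8 and 44.4 CPM cocultured, with no overlap between the groups of either cell and a difference of 6.92 ± 0.12 (edgeR's quasi-likelihood test, Benjamini-Hochberg adjusted p = 7.94e-23). Cish, an early STAT5 target, had a difference of 3.00, Socs1 3.22, and the survival kinases Pim1 and Pim2 2.82 and 3.93. The negative members included Jak1 (-0.63), Stat6 (-0.67) and Tyk2 (-0.50), which fell in ILC2s and rose in eosinophils. Only 1 of the list did so when ILC2-alone replicate 1, 2 or 3, cocultured ILC2 replicate 1 or 3, or eosinophil-alone replicate 1 was left out. Stat5a rose in both cells, more so in ILC2s, with a difference of 0.58, and shares exon sequence on the opposite strand with Stat3.

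Immediate early genes, which switch on within minutes of a signal, leaned the same way. Of 22 tested, 17 were called positive and 1 negative, 7 with an ILC2 rise and an eosinophil fall, and the median difference was 1.65. The transcription factors Fos and Egr1 had differences of 5.76 and 5.55. Egr1 read 3.79, 0.992 and 1.89 CPM and 34.9, 49.2 and 32.5 CPM in ILC2s alone and cocultured, and 40.9, 48.6 and 34.4 CPM and 13.9, 16 and 17.3 CPM in eosinophils. Its ILC2 groups were far apart and its eosinophil groups did not overlap. Btg2, an antiproliferative gene, was the negative one (-2.20), falling in ILC2s and rising in eosinophils.

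Itgae, the CD103 integrin chain that anchors lymphocytes in epithelium, read 70.8, 70.2 and 68 CPM in ILC2s alone and 8.94, 8.21 and 8.09 CPM in cocultured ones. Eosinophils read 2.67, 2.4 and 1.36 CPM alone and 8.04, 9.68 and 9.22 CPM cocultured, so the cells differed widely alone and met after coculture. The level fell in ILC2s and rose in eosinophils, and the difference was -5.12 ± 0.19 (edgeR's quasi-likelihood test, Benjamini-Hochberg adjusted p = 1.19e-16). The genes named next moved in the same directions. Sgk1, a growth factor and salt regulated kinase, had a difference of -4.22, the Rab GTPase activator Tbc1d4 -5.05 and the retinal reductase Dhrs3 -4.38. The integrin chain Itgb5 had -4.73, the syntrophin Sntb1 -5.53 and Pbld2 -6.06.

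Sntb1 and Tbc1d4 were among the genes whose higher cell changed from ILC2s to eosinophils. Sntb1 read 36.5, 34.3 and 35.6 CPM and 7.02, 6.97 and 8.75 CPM in ILC2s alone and cocultured and 1.74, 1.66 and 2.91 CPM and 17.2, 24.9 and 20.8 CPM in eosinophils. Cxcr4, the receptor that retains leukocytes in bone marrow, had a difference of -2.30. It fell in ILC2s from 75.6, 75 and 71.4 CPM to 49.7, 50.2 and 49.5 CPM and rose in eosinophils from 193, 197 and 186 CPM to 582, 604 and 715 CPM. Cd44, a hyaluronan receptor, had a smaller difference of -1.34.

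Quiescence and egress genes were mostly negative, 12 of 18 against 4 positive, with a median difference of -0.58 carried by ILC2s (ILC2 -0.74, eosinophils -0.03). Txnip, which restrains glucose uptake, fell in ILC2s (-1.17) and rose slightly in eosinophils (0.15). Tsc22d3, a glucocorticoid-induced leucine zipper, fell in ILC2s (-2.27) with no change called in eosinophils. Klf2, which holds lymphocytes at rest, fell in both, further in ILC2s (ILC2 -1.85, eosinophils -1.21), a difference of -0.63.

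Lysosomal genes leaned to eosinophils. Of 19 tested, 11 were called negative and 5 positive, and 14 rose in eosinophils against 8 in ILC2s, with a median difference of -0.41. Ctsd, a lysosomal aspartic protease, read 565, 578 and 584 CPM and 459, 468 and 539 CPM in ILC2s alone and cocultured and 937, 875 and 1060 CPM and 1270, 1190 and 1350 CPM in eosinophils. It fell in ILC2s and rose in eosinophils, for a difference of -0.64 ± 0.10. Hexa, a hexosaminidase subunit, was at -0.55, while the protease Ctsc moved the other way, at 1.49.

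Cell cycle genes set the ILC2 response apart with little from eosinophils. All 26 DNA replication genes tested were called positive, with a median difference of 2.88 (ILC2 2.86, eosinophils 0.02). Of these 26, 13 were measured in both cells, so low levels enter the medians. Mcm5, a subunit of the replicative helicase, read 10.5, 7.53 and 8.24 CPM in ILC2s alone and 165, 152 and 140 CPM in cocultured ones. Eosinophils read 18, 18.9 and 19.5 CPM alone and 17.3, 19.6 and 17.3 CPM cocultured, which overlap. The difference was 4.18 ± 0.14 (edgeR's quasi-likelihood test, Benjamini-Hochberg adjusted p = 2.23e-17). Rrm1, of ribonucleotide reductase, had 3.32 and Pcna, the sliding clamp, 2.57. In the mitosis list 22 of 23 were called positive, but only 1 member was measured in both cells, so eosinophil levels near the floor enter those values, and with genes of at least 1 CPM in both cells the count was 9.

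Respiratory and biosynthetic genes leaned to ILC2s too, with smaller sizes. Oxidative phosphorylation genes were called positive in 22 of 24 and negative in 1, with a median difference of 0.67, and 10 changed the higher cell to ILC2s. Cycs, cytochrome c, had 2.34 and Atp5b, of ATP synthase, 1.17. In the tricarboxylic acid cycle 9 of 18 were positive and 1 negative (median 0.33). Ribosome biogenesis genes gave 17 of 22 positive and 0 negative (median 0.83), cholesterol and fatty acid synthesis 21 of 24 positive and 1 negative (median 1.24), and ribosomal protein genes 50 of 82 positive and 1 negative (median 0.32).

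Within lipid synthesis 8 genes rose in ILC2s and fell in eosinophils. Scd2, a fatty acid desaturase, read 71.7, 72.8 and 76 CPM and 427, 412 and 393 CPM in ILC2s and 85.1, 88.1 and 79 CPM and 38.5, 40.8 and 36 CPM in eosinophils, for a difference of 3.61 ± 0.09. Among 21 amino acid and endoplasmic reticulum stress genes, 13 were positive and 3 negative, and Xbp1, a driver of secretory capacity, had a difference of 3.22, with 1.55 in ILC2s and -1.67 in eosinophils, where the chaperones Hspa5 and Hsp90b1 had no call in eosinophils.

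Of the 1138 genes called in the same direction in both responses, 552 moved by unequal size, meaning that their difference was called. In 327 genes the level rose in both cells and more in ILC2s, and in 39 more in eosinophils, a count that was 24 or 25 without ILC2-alone replicate 3 or without cocultured ILC2 replicate 1, 2 or 3. In 131 it fell in both and further in ILC2s, and in 55 further in eosinophils. Myb, a progenitor transcription factor, read 0.48, 0.135 and 0.175 CPM and 49.1, 49.3 and 40.5 CPM in ILC2s and 15.4, 18.9 and 17 CPM and 32, 37.2 and 34.7 CPM in eosinophils, a difference of 6.47 ± 0.26. Eosinophil-weighted rises were led by Atp10a, a lipid flippase (-2.29), and the protease Lgmn (-0.94). Rasgrp2, an activator of Rap1 and integrins, fell in both: from 87.5, 86.5 and 88.4 CPM to 3.19, 3.55 and 3.78 CPM in ILC2s and from 178, 170 and 188 CPM to 149, 139 and 124 CPM in eosinophils, a difference of -4.26.

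Eosinophil-only changes were fewer than ILC2-only ones. Spata13, a guanine exchange factor, rose from 33.5, 30.4 and 30.1 CPM to 119, 136 and 148 CPM in eosinophils and read 264, 253 and 254 CPM and 242, 251 and 256 CPM in ILC2s, a difference of -2.14 ± 0.09. Some such differences fell on genes with little RNA in the eosinophil. S100a4, abundant in ILC2s (220 and 244 CPM), read 7.29, 6.1 and 6.07 CPM in eosinophils alone and 0.309, 1.97 and 2.39 CPM in cocultured ones, and Gata3 read 2.27, 0.986 and 1.11 and 0.494, 0.225 and 0.228 CPM. Both genes were far higher in ILC2s, and the part of ILC2 RNA in these eosinophil values was not tested. Gata3 is itself among the lymphoid markers behind the eosinophil share given above, so neither that share nor its subtraction is independent of Gata3. With partner RNA subtracted from cocultured libraries the Gata3 difference was 7.78 in place of 2.11, and with it subtracted from all libraries 4.55. Of the called genes, 125 had an eosinophil level under 1% of the ILC2 level and 76 the reverse, 18 and 23 of them with opposite responses.

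Genes under 1 CPM in one cell gave differences that rest on the other cell's floor. Tnfrsf8, the CD30 receptor, rose in ILC2s from 1.06, 0.451 and 0.21 CPM to 534, 487 and 441 CPM and was under 1 CPM in eosinophils. Mmp10, a matrix metalloproteinase, had 1 count in ILC2s alone and 2405 in cocultured ILC2s, a ratio of 2450 (95% counting interval 439 to 96700), and its difference missed the threshold without eosinophil-alone replicate 1 (adjusted p = 1). Retnlg, a granulocyte gene, rose in eosinophils from 119, 96 and 130 CPM to 775, 695 and 789 CPM, a difference of -3.18 that was -7.26 with partner RNA subtracted from cocultured libraries. The 12 neutrophil markers, which include it, summed to 282 to 303 CPM in eosinophils alone and 708 to 796 CPM in cocultured ones by library totals, Retnlg being 642 CPM of the latter, Camp at 0 in both and Elane at 0 when cocultured. Of the 10 tested, 2 rose and 3 fell in eosinophils, and the part of another cell in these values was not tested. Lipg, a lipase, fell in eosinophils from 484, 482 and 475 CPM to 31.2, 27.2 and 27.6 CPM, with a difference that missed the threshold without cocultured ILC2 replicate 1 (adjusted p = 0.162).

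**Figure D5:**
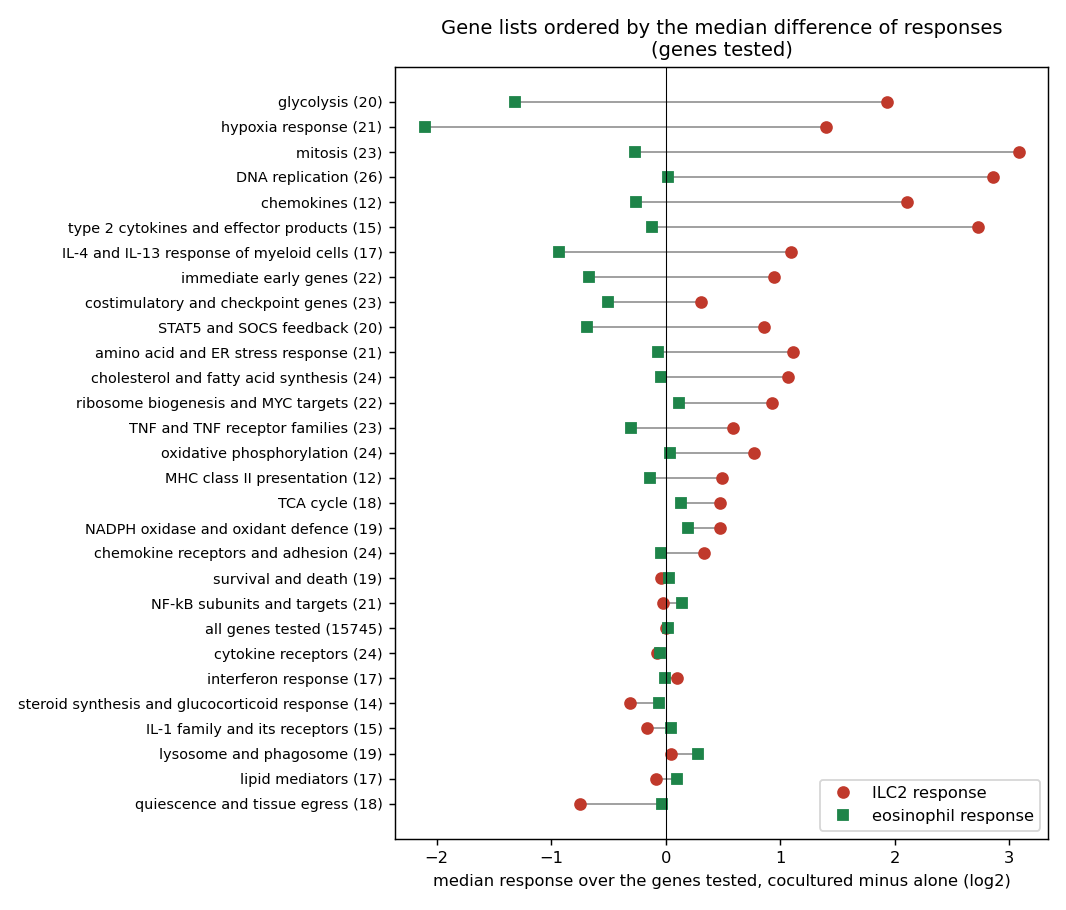
Median response (x axis, log2, cocultured minus alone) of ILC2s (red circles) and eosinophils (green squares) over the genes tested in each list, with the number tested in brackets, ordered by the median difference (y axis). Glycolysis and hypoxia response stand at the top with median differences of 3.73 and 3.38, eosinophils below 0 and ILC2s above it, and quiescence and lipid mediators lie at the other end.

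Some of the other lists leaned to 1 side and others were mixed. Beside them, 26.8% of all genes tested were called positive and 24.8% negative. Of the 8619 measured in both cells, 2923 were positive and 3036 negative. The TNF and TNF receptor families had 12 of 23 positive and 4 negative, costimulatory and checkpoint genes 12 of 23 and 4, and the latter had 6 positive with genes of at least 1 CPM in both cells. Tnfrsf18, the GITR receptor, had 2.67 and Icosl, the ICOS ligand, -1.97. Genes that respond to IL-4 and IL-13 in myeloid cells had 10 of 17 positive and 1 negative, chemokines 8 of 12 and 0 (5 with genes of at least 1 CPM in both cells, with limma-voom or without cocultured ILC2 replicate 1), and chemokine receptors and adhesion 10 of 24 and 7. Lipid mediator genes were mostly negative, 10 of 17 against 3, with Lpcat2, which makes platelet activating factor, at -3.34. NF-kB genes split 7 to 8 of 21, near the shares of all genes measured in both cells, as 18 of them were. Interferon genes split 6 to 4 of 17 and survival genes 9 to 6 of 19. Steroid and glucocorticoid genes split 6 to 7 of 14, MHC class II 4 to 1 of 12, and oxidant defence 10 to 4 of 19. Among genes that define each cell, the ILC2 identity list had 8 of 24 positive and 6 negative (3 negative with genes of at least 1 CPM in both cells), and the eosinophil identity list 5 of 24 and 2 (2 positive with that filter), the latter list having 3 and 8 with partner RNA subtracted from cocultured libraries.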

How the data were processed

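RNA of 12 libraries in 4 groups of 3 was measured by RNA-seq. The authors deposited whole-number counts per gene in 1 table; per the submitters' processing notes, bcl2fastq 2.17, Trimmomatic 0.36, STAR 2.5.2b, featureCounts and Subread 1.5.2 were used with the mm10 build. For the annotation, the strand setting and multimapping reads, the authors' choices were not given in the sources used here. Gene symbols came from GENCODE M21 for 49056 of 49315 identifiers.

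The counts were fitted with edgeR 4.0.16 in R 4.3.3 (filterByExpr, TMM scaling, quasi-likelihood F test, group means over all 12 libraries), with Benjamini-Hochberg adjustment over 15745 genes and a threshold of 0.05. SE is the absolute log2 fold change over the square root of F. On simulated counts for 15346 genes, 200 genes of at least 5 CPM and measured in both cells were given a difference. Of differences of 1.5, 2 and 4-fold, 77.6%, 100% and 100% were recovered, and 4.15% of calls were false. No gene at a lower level was given a difference, and far fewer genes changed than were called in the data. These rates therefore may not hold for all genes tested. Intervals and floors of 3 counts cover counting error only. Alternatives were DESeq2 1.42.0, limma 3.58.1 (voom), other scalings and filters, a replicate block, subtraction of partner RNA and leaving out each library.

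The members, markers and gene lists were chosen with earlier results of these data known. Named genes are the largest differences of each response class among genes measured in both cells, up to 3 members of each list by the smallest p, the largest changes of genes under 1 CPM in one cell, and 12 genes given by name. A further 39 were added after their values were seen, some of which the rule also names.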

Additional observations from a re-analysis of the deposited data

Results flagged for a closer look

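The named genes whose coculture response differed between ILC2s and eosinophils, by the test of the difference itself, are given here with the log2 difference. Differences made of a rise in ILC2s and a fall in eosinophils were Mgarp 18.38, a fitted value that depends on the prior count because all cocultured eosinophil libraries had 0 counts, Il1r2 11.86, Ak4 11.00, Smtnl2 10.77, Stc2 9.76, Vegfa 7.47, Il13 7.43, Neb 7.20, Cyp11a1 6.69 and Il5 3.14. Differences made of a fall in ILC2s and a rise in eosinophils were Pbld2 -6.06, Sntb1 -5.53, Itgae -5.12, Tbc1d4 -5.05, Itgb5 -4.73, Dhrs3 -4.38, Cd101 -4.23, Sgk1 -4.22 and Csf1 -3.53.

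Rises in both cells differed for Myb 6.47, Ctsh 4.17, Hhex 3.14 and Dna2 3.07, larger in ILC2s, and for Atp10a -2.29, Lgmn -0.94, Sephs2 -0.75 and Arhgef39 -0.72, larger in eosinophils. Falls in both differed for Rasgrp2 -4.26, Adgre5 -1.89 and Acss1 -1.67, further in ILC2s, and for Ciart 3.23, Pdk1 2.67 and Pglyrp2 1.31, further in eosinophils. With a call in ILC2s and none in eosinophils there were Slpi 5.82, Cd74 4.73, Csf2 1.98, Osgin1 -3.09 and Slc12a5 -2.64. Slpi was 9.84 without ILC2-alone replicate 3, and Csf2 was 4.16 without cocultured eosinophil replicate 1. With a call in eosinophils and none in ILC2s there were Spata13 -2.14, Rec8 -1.51, Mir6236 3.06, S100a4 2.17, Gata3 2.11 and Il1rl1 0.68. Gata3 was 7.78 with partner RNA subtracted from cocultured libraries. Mir6236 varied widely within groups, at 107, 16.7 and 21 CPM in ILC2s alone and 41.2, 201 and 85.3 CPM in eosinophils alone.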

How the results depend on the processing

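Of 166 named genes, 153 kept their sign and side of the threshold under every alternative run; of 3804 gene values under 23 alternatives, 3774 did, 15 lost the call, 6 gained it, 2 reversed with a call, and 7 changed sign without one, all of Epx or Siglecf. The reversals were Ccl6 at -4.04 and Siglecf at -5.20 with partner RNA subtracted from cocultured libraries. Both are eosinophil genes near the floor in ILC2s. That setting took nothing from libraries cultured alone, although a share was estimated for them too (0.0285% in ILC2s alone, 0.0388% in cocultured ILC2s). With partner RNA subtracted from all libraries, neither gene reversed with a call. The cause was not tested further. Calls were lost for Csf2, Alox15, Ccl6, Tnf, Ccr2, Cd274, Lipg, Plet1 and Mmp10 in 1 or more settings, with adjusted p of 0.106 for Alox15 without cocultured ILC2 replicate 3, 0.127 for Tnf without cocultured ILC2 replicate 2 and 0.0574 for Plet1 without cocultured ILC2 replicate 3. Calls were gained for Il4 and Areg. The genes that rose in both cells and more in eosinophils numbered 24 to 52 when 1 library was left out, those called in neither response 339 without a filter on low counts, and genes whose higher cell changed to ILC2s 460 with library totals. The other response counts stayed within 1.5 times. Positive calls made up 51.9% of all calls and 39.6% with library totals. With partner RNA subtracted from cocultured libraries, the eosinophil identity list went from 5 positive and 2 negative to 3 and 8. The same subtraction moved Alox15 to -8.14, Arg1 to 2.77, Lif to 15.63, Gata3 to 7.78 and Retnlg to -7.26, fitted values that rest on low counts in 1 of the cells. List counts of 3 or fewer moved by 1 or 2 genes in several settings.

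Same-numbered libraries showed little sign of pairing: 1 of 18 pairs had a correlation of deviations over 0.1 (-0.0577 to 0.242), and 6 of 12 libraries correlated best with their own number. The value of 0.242 was for replicate 2 of the 2 eosinophil groups. With 3 libraries a group, this check cannot exclude pairing. With the replicate block, 4221 genes were positive and 3929 negative, and 8015 of 8114 calls kept their direction. Depth limits genes under 1 CPM, of which 16.2% were called.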
